A study of Mus musculus with 4 samples.

Results

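Skeletal muscle is fed by a dense bed of capillaries, and the transcripts of the endothelial cells that line them, together with those of the growth factors that act on them, are carried in whole-muscle RNA. The 10 genes described here were chosen by symbol from the 23282 gene rows of each library. They are Vegfa, Kdr, Flt1, Tek, Angpt1, Angpt2, Apln, Pecam1, Cdh5 and Sox17, and each symbol matched a row in all 4 libraries. The rule is a list of names, drawn up with earlier results of these data known.

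The study asked how high-intensity aerobic exercise and cancer alter gene expression in the gastrocnemius, the large calf muscle of the mouse. Male CDF1 mice, a hybrid laboratory strain, were labelled as postnatal day 28, which per the methods is the age at which they were bought and not the age at which tissue was taken. The normal control group (E-T-) neither ran nor received tumor cells, and the normal exercise group (E+T-) ran on a motorized treadmill. The cancer control group (E-T+) received CT26 cells, a murine colorectal cancer line, through the tail vein and did not run, and the cancer exercise group (E+T+) received the same cells and ran. Mice of every group were bled out under anesthesia at the end, and the right gastrocnemius was removed. Each group has 1 library, and the sources differ on whether it holds 1 mouse or the 10 named per group in the design text. The differences therefore have no replicate check, and no p-value can be given. Where an interval is printed, it covers the error of counting reads only and not the spread between mice. No molecular identifiers are mentioned for these reads, so copied reads may have been counted and the interval may be too narrow.

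The libraries held between 10647862 and 13225886 reads assigned to genes, and between 14427 and 14830 genes with at least 1 read. A gene with no read in a library may still make up as much as 2.27e-05% to 2.82e-05% of that library, the share that 3 reads would take. Levels are given as normalized read counts, which are the deposited log2 values turned back to a linear scale less the pseudocount. A difference between 2 libraries is the difference of their log2 values (a pseudocount of 1 is part of the deposited values). A gene was called when the 2 libraries differed at least 2-fold and 1 or both of them reached a normalized read count of 4. The study gives the same limits but does not say in how many libraries the count had to be reached. It reported fewer changed genes for both exercise comparisons than were called here. All 10 muscle fibre markers had reads in each library and took 7.33% to 10.5% of them, and all 25 endothelial markers outside the chosen genes had reads in each library. The cancer control library stood apart in carrying skin transcripts, and the share of red cell transcripts differed widely between libraries. Both are given with their values after the endothelial genes. Where 4 values follow each other, they are in the order E-T-, E+T-, E-T+ and E+T+.

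As background, vascular endothelial growth factor A, the product of Vegfa, is released by muscle fibres and other cells and acts on the receptor tyrosine kinases encoded by Kdr (VEGFR2) and Flt1 (VEGFR1). Kdr carries most of the growth and permeability signal, while Flt1, which also exists as a soluble form, binds the ligand tightly and limits it. Tek encodes Tie2, the receptor for the angiopoietins. Angpt1 activates Tie2 and keeps vessels quiet, and Angpt2, made by endothelial cells when vessels are remodelled, can oppose it. Apln encodes apelin, a peptide of sprouting endothelium. Pecam1 and Cdh5 encode CD31 and VE-cadherin, adhesion proteins of endothelial cell contacts, and Sox17 encodes a transcription factor of arterial endothelium.

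In the GRCm38 annotation, which is the build mm10 that the submitters named, Vegfa lies at chr17:46016993-46032369, Flt1 at chr5:147561604-147726011 and Kdr at chr5:75932827-75978458, all on the minus strand. Tek lies on the plus strand at chr4:94739289-94874976. Angpt1 is at chr15:42424723-42676977, Angpt2 at chr8:18690263-18741562 and Apln at chrX:48025146-48034853, all on the minus strand. Pecam1 is at chr11:106654217-106750628 on the minus strand, Cdh5 at chr8:104101625-104144511 on the plus strand and Sox17 at chr1:4490931-4497354 on the minus strand. All are protein-coding genes. The assay reads the 3′ ends of polyadenylated transcripts, and the coding transcripts of Kdr, Angpt1, Angpt2 and Apln share 1 annotated 3′ end per gene. The others have between 2 (Flt1, Cdh5) and 7 (Sox17) annotated ends, so the isoforms of Flt1 are not told apart by a count per gene. Angpt2 lies wholly inside Mcph1, a gene on the opposite strand. Whether strand was used in the counting is not given in the sources used here, so reads of Angpt2 and Mcph1 cannot be told apart if it was not.

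The promoter was found for 5 of the 10 genes in the RefSeq table for GRCm38.p6 (Vegfa, Kdr, Flt1, Tek and Apln). The windows of the ligand Vegfa, of its receptors Kdr and Flt1, whose levels parted from each other, and of Apln, whose level varied most, are shown. Each is the 250 bases upstream of the transcription start, written 5′ to 3′ on the gene's strand. Capitals mark GCGTG, a core motif of hypoxia-inducible factors, and GGGCGG, the GC box, on either strand. The strand of all 4 is minus. They are chr17:46032378-46032627, chr5:75978456-75978705, chr5:147726012-147726261 and chrX:48034854-48035103 in the order printed.
Vegfa: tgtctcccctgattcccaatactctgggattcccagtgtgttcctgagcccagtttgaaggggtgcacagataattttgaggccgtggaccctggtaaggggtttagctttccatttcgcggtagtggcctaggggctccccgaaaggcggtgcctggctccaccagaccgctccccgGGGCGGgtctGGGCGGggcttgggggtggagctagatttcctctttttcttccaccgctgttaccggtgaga
Kdr: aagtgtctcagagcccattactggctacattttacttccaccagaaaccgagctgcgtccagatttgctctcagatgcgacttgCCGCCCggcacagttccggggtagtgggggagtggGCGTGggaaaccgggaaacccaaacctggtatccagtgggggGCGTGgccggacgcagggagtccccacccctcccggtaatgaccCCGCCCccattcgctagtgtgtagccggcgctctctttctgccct
Flt1: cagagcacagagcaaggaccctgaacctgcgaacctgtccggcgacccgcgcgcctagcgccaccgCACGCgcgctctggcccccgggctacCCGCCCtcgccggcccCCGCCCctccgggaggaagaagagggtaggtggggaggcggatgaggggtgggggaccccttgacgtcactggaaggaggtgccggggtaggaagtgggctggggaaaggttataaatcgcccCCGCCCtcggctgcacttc
Apln: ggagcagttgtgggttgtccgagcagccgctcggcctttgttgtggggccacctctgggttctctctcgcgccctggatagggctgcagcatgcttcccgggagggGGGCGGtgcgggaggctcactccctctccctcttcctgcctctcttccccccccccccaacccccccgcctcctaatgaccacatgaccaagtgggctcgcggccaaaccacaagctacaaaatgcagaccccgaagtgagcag

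The GC box was present 2 times in the Vegfa and Kdr windows, 3 times in that of Flt1 and once in that of Apln, and 32.7% of all 32851 mouse windows of this length hold it. GCGTG was present 2 times upstream of Kdr and once upstream of Flt1, against 28.2% of all windows. ACGTG, the other core motif of hypoxia-inducible factors, is in 16.6% of all windows and in none of these. The Flt1 window was the richest in G and C among the 4 (70.4%), above the median of 52.4% over all windows, and the others held 59.2% (Vegfa), 61.6% (Kdr) and 65.2% (Apln). The Tek window, which is not printed, held none of the motifs and 51.2% G and C. A match is a match of letters in these windows and not a site shown to be bound.

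The levels of the 10 genes spanned very different ranges over the 4 libraries. Apln varied most, its highest level being 8.98 times its lowest, followed by Angpt1 (7.56 times), Kdr (2.84), Angpt2 (2.77) and Vegfa (2.16). The other 5 genes stayed within 1.88 times, and Pecam1 moved least (1.57 times). When the 4 levels of each gene were put in order, 16 of the 30 pairs of neighbours were separated by the 95% counting interval of their difference and 14 were not. In whole muscle, fewer endothelial cells and less RNA per endothelial cell cannot be told apart.

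**Figure D1:**
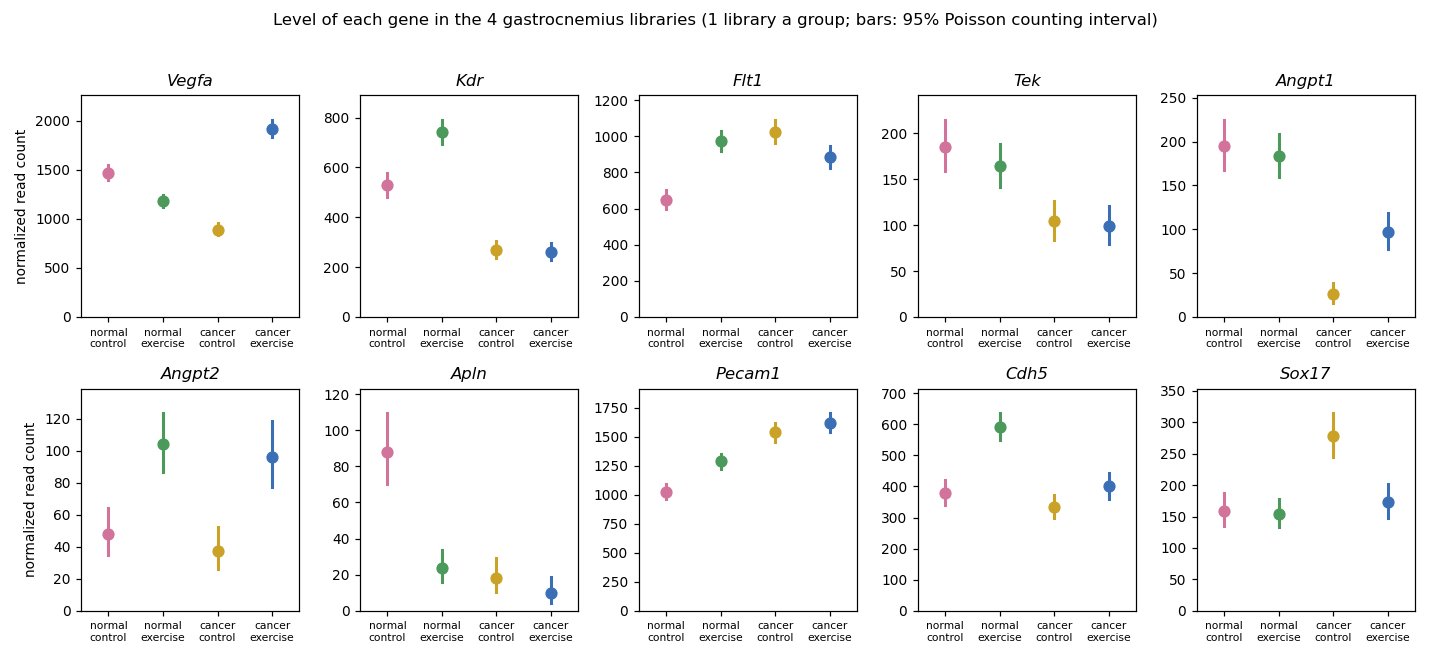
Normalized read count (linear axis from 0) of each of the 10 genes in the 2 tumor-free and the 2 cancer libraries, 1 library a group. Bars are 95% Poisson counting intervals, and a reader should see that Kdr and Tek were lower in both cancer libraries while Vegfa was highest with cancer and exercise combined (1922) and lowest with cancer alone (891).

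Each comparison called few of the 10 genes. Exercise in tumor-free mice (normal exercise against normal control) raised 1 gene, Angpt2, and lowered 1, Apln, where 9.44% of all 14518 genes over the minimum were called higher and 12.1% lower. The median difference of the 10 genes was 0.14 on the log2 scale, beside -0.01 over all genes. The tumor in sedentary mice (cancer control against normal control) raised none of the 10 genes and lowered Angpt1 and Apln, where 20.9% of 14818 genes were called higher and 24.2% lower. Their median was -0.53, beside -0.04 over all genes.

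Exercise in tumor-bearing mice (cancer exercise against cancer control) raised Vegfa, Angpt1 and Angpt2 and lowered none, where 15.6% of 14491 genes were called higher and 15.1% lower. The median of the 10 genes was 0.01. The tumor in exercised mice (cancer exercise against normal exercise) lowered Kdr and Apln and raised none, where 13.9% of 14470 genes were called higher and 16.3% lower, and the median was -0.35 beside -0.03 over all genes. Each library serves in 2 of these 4 comparisons, so they are not independent of one another, and counts of 0 to 3 genes in 10 are read beside those shares as a description only. The counts given below for the gene lists are to be read beside the same shares, and as a description too.

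**Figure D2:**
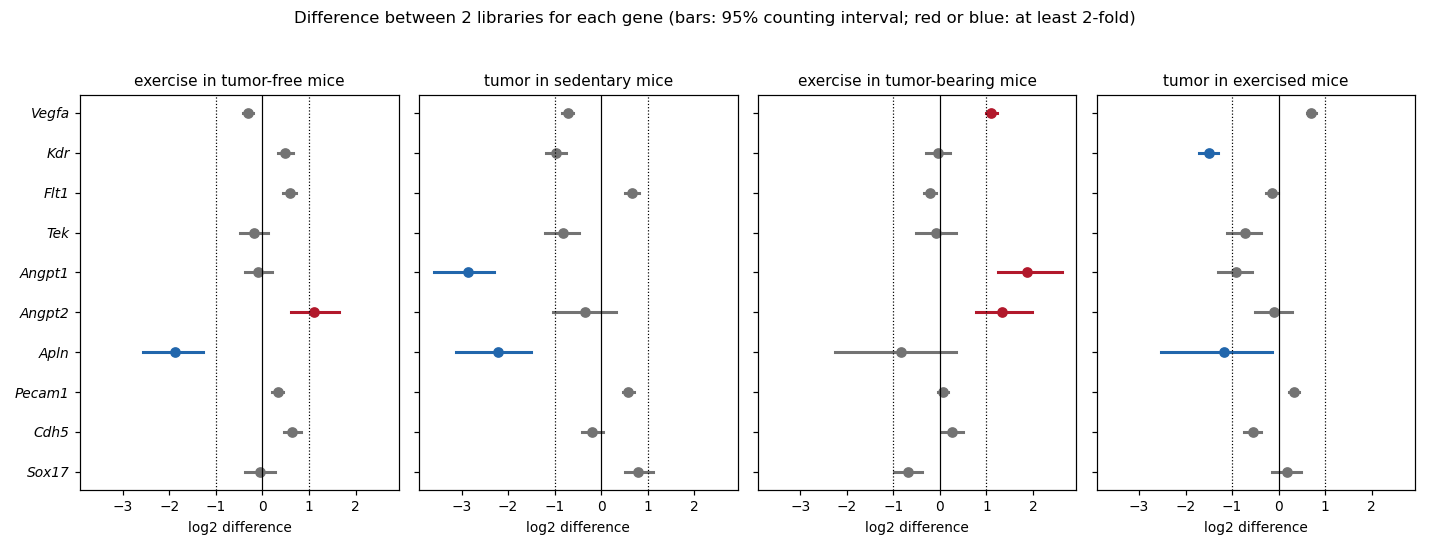
Difference on the log2 scale between 2 libraries (horizontal axis) for each of the 10 genes in the 4 comparisons, with 95% counting intervals and dotted lines at 2-fold. Red marks genes at least 2-fold higher and blue genes at least 2-fold lower, and Apln gave -1.87, -2.21, -0.83 and -1.18 in the 4 panels, past 2-fold in all but the third.

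Vegfa, the ligand, was lowest with cancer alone and most abundant with cancer and exercise together. It had 1383 reads in the normal control library and 1454 in normal exercise, against 832 in cancer control and 1774 in cancer exercise, which correspond to normalized read counts of 1470.4, 1179, 891 and 1922. All 4 levels were separated from their neighbours in order by the counting interval. Exercise in tumor-bearing mice raised Vegfa by 1.11 on the log2 scale (95% counting interval 0.99 to 1.23), or 2.16-fold. In tumor-free mice, the exercised library was lower by a difference of -0.32 (-0.43 to -0.21), which did not reach 2-fold. With the tumor, the difference was -0.72 (-0.85 to -0.60) in sedentary mice and 0.71 (0.60 to 0.81) in exercised mice, and neither reached 2-fold.

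Kdr, the main signalling receptor for this ligand, split the libraries by tumor. It had 497 reads in the normal control library and 915 in normal exercise, against 252 in cancer control and 241 in cancer exercise, with normalized read counts of 529, 742, 270.0 and 261. Both cancer libraries lay below both tumor-free ones, and they did not differ from each other beyond counting error (difference -0.05, interval -0.31 to 0.21). The tumor lowered Kdr by a difference of -1.503 (-1.72 to -1.30) in exercised mice, a 2.83-fold fall. In sedentary mice the difference was -0.97 (-1.19 to -0.75), just short of 2-fold. The exercised tumor-free library was higher than its control by 0.49 (0.33 to 0.65), also under 2-fold.

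Flt1, the decoy-like receptor, did not follow Kdr in the cancer libraries. It had 608, 1198, 957 and 817 reads in the same order, with normalized read counts of 647, 971, 1025 and 885. Normal control was the lowest library, and the levels of cancer control and normal exercise were not separated by counting error. Its differences were 0.59 (0.45 to 0.73) for exercise in tumor-free mice and 0.66 (0.52 to 0.81) for the tumor in sedentary mice, and none of the 4 comparisons called it.

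A ratio of the reads of 2 genes within a library does not depend on how libraries are scaled. It does depend on how well each 3′ end is caught, so only its change between libraries is described, and these ratios were chosen after the values were seen. The reads of Flt1 over those of Kdr came to 1.22 (95% Clopper-Pearson counting interval 1.08 to 1.38) in normal control and 1.31 (1.20 to 1.43) in normal exercise. The same ratio was 3.80 (3.30 to 4.38) in cancer control and 3.39 (2.93 to 3.93) in cancer exercise. The intervals of the 2 cancer libraries overlapped each other and lay above those of both tumor-free libraries.

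**Figure D3:**
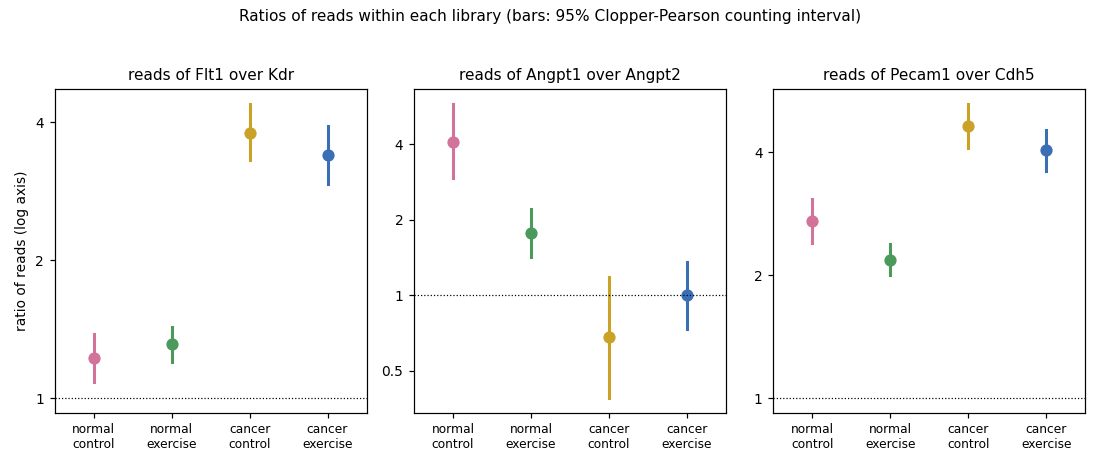
Ratio of the reads of 2 genes within each library (log axis) for Flt1 over Kdr, Angpt1 over Angpt2 and Pecam1 over Cdh5, with 95% Clopper-Pearson counting intervals and 1 library a group. The Flt1 to Kdr ratio was 1.22 and 1.31 in the tumor-free libraries and 3.80 and 3.39 in the cancer libraries.

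The other VEGF ligands and receptors moved gene by gene rather than as a family. Among the 7 genes measured beside Vegfa, Kdr and Flt1 was Figf, the symbol in the files for VEGF-D, a ligand with actions on lymphatic vessels. It had 93 and 113 reads in the normal control library and normal exercise and 572 and 445 in cancer control and cancer exercise. The tumor raised it by 2.62 (2.31 to 2.96) in sedentary and 2.39 (2.09 to 2.71) in exercised mice on the log2 scale. Pgf, placental growth factor, which binds Flt1, had 65, 23, 67 and 130 reads in the 4 libraries in the order above. It fell with exercise in tumor-free mice (-1.85, interval -2.64 to -1.19), and the 2 exercised libraries differed by 2.86 (2.27 to 3.62) with the tumor. Flt4, the lymphatic receptor VEGFR3, rose with exercise in tumor-free mice (49 and 141 reads, difference 1.12, 0.66 to 1.63) and fell with the tumor in exercised mice (44 reads in cancer exercise, difference -1.25).

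The coreceptor Nrp1 was abundant, and its normalized read counts of 2453, 2215, 1333 and 2494 had the same lowest and highest libraries as Vegfa without passing 2-fold in any comparison. Vegfb, a ligand of Flt1, had normalized read counts of 1679.9, 1376, 1302 and 1759.8 and was not called. Vegfc, a lymphatic ligand, was scarce (13 to 21 reads), and the coreceptor Nrp2 ranged from 161 to 299 reads. Over these 7 genes, 1 was called higher and 1 lower with exercise in tumor-free mice, 1 higher and 0 lower with the tumor in sedentary mice, 0 and 0 with exercise in tumor-bearing mice, and 2 higher and 1 lower with the tumor in exercised mice.

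Among 5 coactivators and nuclear receptors known to act on Vegfa or its partners in muscle, Ppargc1a, Ppargc1b and Esrra were lowest in cancer control, as Vegfa was. Ppargc1b, which encodes PGC-1β, had 207, 267, 58 and 179 reads. It fell with the tumor in sedentary mice (difference -1.81, -2.27 to -1.40) and rose with exercise in tumor-bearing mice (1.62, 1.21 to 2.10). Ppargc1a, encoding PGC-1α, a coactivator that drives Vegfa in exercised muscle, had normalized read counts of 514, 391, 320.1 and 456 and was called in no comparison. Esrra, the partner receptor ERRα, had 862, 641, 575 and 945 and was not called either. The remaining genes of the list did not share the low point of Vegfa. Ppard (95 to 167 reads) was instead highest in cancer control, with normalized read counts of 101, 106, 179 and 159. Its difference with the tumor in sedentary mice was 0.82 (0.45 to 1.20). Esrrg (70 to 93 reads) was lowest in normal exercise, and neither was called. Ppargc1b alone was called, so the list gave 0 higher and 0 lower with exercise in tumor-free mice and with the tumor in exercised mice.

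Hypoxia is a known inducer of Vegfa, and a list of 20 genes induced by or acting in hypoxia was described beside it. With the tumor in sedentary mice, 7 of the 20 genes were called higher and 4 lower, beside 20.9% and 24.2% of all genes. The median difference of the 20 was 0.65. Adm, Egln3, Hif3a and Slc2a1 joined Ddit4, Bnip3 and Pfkfb3 on the higher side, and Egln1, Hif1an, Ankrd37 and P4ha1 made up the lower side. Ddit4, a stress-induced brake on mTORC1, had normalized read counts of 359.5, 380.1, 17486 and 7874, and Bnip3, a mitophagy receptor, had 2618, 2713, 16646 and 7086. Pfkfb3, a glycolytic regulator, was highest in cancer control (5665) and lower in cancer exercise (2158), and Hk2, hexokinase II, was called in no comparison. In tumor-bearing mice, exercise lowered 5 of the 20 genes and raised 0. The 5 were Ddit4, Bnip3, Pfkfb3, Slc2a1 and Car9. Ddit4 is also induced by glucocorticoids and Bnip3 by FoxO factors, and the part of hypoxia in the levels of Vegfa was not tested. With exercise in tumor-free mice 1 of the 20 was called higher (Egln3, an oxygen-sensing hydroxylase) and 0 lower. With the tumor in exercised mice 5 were higher (Ddit4, Bnip3, Egln3, Hif3a and Arnt) and 3 lower (Ankrd37, P4ha1 and Car9). Of these names, all but Ddit4, Bnip3, Pfkfb3 and Hk2 were chosen after their values were seen.

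Tek was lower in both cancer libraries, as Kdr was, but by less than 2-fold. It had 174 reads in the normal control library and 202 in normal exercise, against 97 in cancer control and 91 in cancer exercise, with normalized read counts of 185, 164, 104 and 98.6. The 2 tumor-free levels were not separated by counting error, nor were the 2 cancer levels. The tumor gave differences of -0.83 (-1.21 to -0.47) in sedentary and -0.73 (-1.11 to -0.37) in exercised mice.

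Angpt1, the activating Tie2 ligand, was lowest in the cancer control library. It had 183, 226, 24 and 89 reads, with normalized read counts of 195, 183, 25.8 and 96.4. The 2 tumor-free libraries were alike within counting error, cancer exercise was lower than both, and cancer control was the lowest. Angpt1 fell 7.31-fold with the tumor in sedentary mice (difference -2.87, -3.60 to -2.30) and rose 3.64-fold with exercise in tumor-bearing mice (difference 1.86, 1.24 to 2.62). The tumor in exercised mice gave -0.92 (-1.30 to -0.57), under 2-fold on the deposited scale but past it when libraries were scaled to their total reads.

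Fibroblast and mural cells lie around vessels and are known sources of Angpt1, and their markers were looked at in the same library. All 8 fibroblast markers were lower in cancer control than in normal control and 6 of them were called, with a median difference of -2.78. The 8 together took 0.564%, 0.392%, 0.324% and 0.313% of reads, a sum dominated by Dcn, the collagen-binding proteoglycan decorin. Lum, another proteoglycan, had 1605, 992, 95 and 336 reads, and Clec3b had 1614, 1168, 67 and 292. Both were picked after their values were seen and fell furthest of the 8 with the tumor in sedentary mice. Pdgfra and Mfap5 fell less there, with differences of -0.69 and -1.14. Dcn, Pdgfra, Pi16, Mfap5 and Col15a1 were not called with exercise in tumor-bearing mice. Of the 8, 5 were called lower and 0 higher with exercise in tumor-free mice, 3 higher and 0 lower with exercise in tumor-bearing mice, and 0 higher and 5 lower with the tumor in exercised mice. Of the 11 mural markers, which mark pericytes and smooth muscle, the tumor in sedentary mice called 5 lower (Acta2, Myh11, Cspg4, Notch3 and Cnn1) and 0 higher, and exercise in tumor-bearing mice called 3 higher (Higd1b, Tagln and Cnn1) and 0 lower. In the first of these, 8 of the 11 were lower and 3 higher (Abcc9 by 0.81, Tagln by 0.06 and Pdgfrb by 0.01 on the log2 scale), with a median of -0.49, and the 11 together took 0.0304%, 0.0361%, 0.0297% and 0.0324% of reads. With the tumor in exercised mice Higd1b was called higher and Acta2 lower, and exercise in tumor-free mice called 0 in either direction. Apart from Acta2, Myh11 and Abcc9, these names were chosen after the values were seen. Acta2, smooth muscle actin, had 652, 1151, 283 and 410 reads, and Myh11, smooth muscle myosin, had 423, 496, 193 and 360. Kcnj8, a pericyte potassium channel subunit, was called in no comparison, nor was its partner Abcc9. The part of these cells in the result for Angpt1 was not tested.

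Angpt2, the remodelling ligand, rose with exercise whether or not a tumor was present. It had 45 reads in the normal control library and 128 in normal exercise, against 35 in cancer control and 89 in cancer exercise, with normalized read counts of 47.9, 104, 37.5 and 96.3. Both exercised libraries were above both sedentary ones, and neither pair was separated within itself by counting error. The rise was 2.15-fold in tumor-free mice (difference 1.10, 0.62 to 1.64) and 2.53-fold in tumor-bearing mice (1.34, 0.78 to 1.97), so the lower bound of each interval was under 2-fold. Mcph1, the gene around it on the other strand, had 48, 48, 69 and 62 reads, with differences of -0.39 and -0.14 in the same comparisons. The reads of Angpt1 over those of Angpt2 came to 4.07 (2.92 to 5.77) in normal control and 1.77 (1.42 to 2.21) in normal exercise. It was 0.686 (0.39 to 1.19) in cancer control and 1.0 (0.737 to 1.36) in cancer exercise. The normal control ratio was above the other 3 beyond counting error.

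Of the other genes of the Tie2 pathway, none was called. Tie1, the partner receptor of Tie2, had 294, 386, 224 and 277 reads, and Ptprb, the phosphatase VE-PTP that restrains Tie2, had 900, 1211, 627 and 635. Both gave a difference between -0.51 and 0.32 in each comparison. Angpt4, another angiopoietin, had 0 reads in every library, which allows no more than the share given above for 3 reads.

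Apln was highest in normal control and lower in every other library. It had 83 reads there and 29 in normal exercise, against 17 in cancer control and 9 in cancer exercise, with normalized read counts of 88.1, 23.4, 18.3 and 9.82. Only the gap between normal control and the rest was separated among neighbours in this order. It fell 3.65-fold with exercise in tumor-free mice (difference -1.87, -2.57 to -1.28) and 4.63-fold with the tumor in sedentary mice (-2.21, -3.12 to -1.51). The tumor in exercised mice lowered it 2.26-fold, at a depth where the interval was wide (-1.18, -2.53 to -0.15) and where a pseudocount of 4 took the value under 2-fold. The difference for exercise in tumor-bearing mice was -0.83 (-2.25 to 0.35), which is not resolved at 17 and 9 reads.

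Its receptor Aplnr had still fewer reads, namely 38, 22, 2 and 7, and it was the 1 gene among the 5 relatives of the Tie2 and apelin genes that passed 2-fold, which it did in all 4 comparisons. With exercise in tumor-free mice it showed a difference of -1.13 (-2.01 to -0.39). With 2 reads in cancer control, the tumor difference in sedentary mice was -3.69 with an interval of -7.34 to -2.29. The remaining 2 differences, 1.43 for exercise in tumor-bearing mice and -1.12 for the tumor in exercised mice, had counting intervals that reached past 0. Apela, the second apelin receptor ligand, had 0 reads in every library.

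Fat tissue, another known source of apelin, was also richest in normal control. The 6 fat markers took 0.135%, 0.0554%, 0.0403% and 0.0864% of reads. With the tumor in sedentary mice, 6 of 6 were called lower, and with exercise in tumor-free mice 3 were called lower and 0 higher. With exercise in tumor-bearing mice 4 were called higher and 0 lower, and the tumor in exercised mice called 1 higher and 1 lower. Apln had 17 reads in cancer control and 9 in cancer exercise, a difference not resolved by counting. Adipoq, encoding adiponectin, had 1823, 929, 564 and 1036 reads, and Lep, encoding leptin, had 67, 12, 0 and 0. The part of fat in the result for Apln was not tested.

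Pecam1 and Cdh5, both carried by endothelial cells in general, did not move as a pair. Pecam1 had 967, 1590, 1437 and 1495 reads, with normalized read counts of 1029, 1289, 1539 and 1619. It was lowest in normal control, and the 2 cancer libraries were highest and not separated from each other. Its differences were 0.33 (0.21 to 0.44) for exercise in tumor-free mice and 0.58 (0.46 to 0.70) for the tumor in sedentary mice. Cdh5 had 357, 729, 311 and 370 reads, with normalized read counts of 379.8, 591, 333 and 401. Normal exercise stood above the other 3 libraries beyond counting error, with a difference of 0.64 (0.45 to 0.83) from normal control. The other 3 were not separated from their neighbours in order, but cancer exercise lay above cancer control by 0.27 (0.05 to 0.49). Neither gene was called in any comparison. The reads of Pecam1 over those of Cdh5 were 2.71 (2.40 to 3.07) and 2.18 (1.997 to 2.38) in the tumor-free libraries and 4.62 (4.08 to 5.24) and 4.04 (3.60 to 4.54) in the cancer libraries. As with Flt1 over Kdr, both cancer ratios lay above both tumor-free ratios. Pecam1 is also carried by platelets and white blood cells, which Cdh5 is not.

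Some scarce platelet markers were called higher with the tumor, while white cell markers differed in both directions. The 7 platelet markers summed to 0.0091%, 0.00922%, 0.0154% and 0.0109% of reads, and the 9 white cell markers to 0.023%, 0.0262%, 0.0426% and 0.0355%. Of the white cell markers, Cd3e, which defines T cells, and Cd79a, which defines B cells, had 0 to 4 reads in each library (chosen after their values were seen). The tumor called 4 of the 7 platelet markers higher and 0 lower in sedentary mice, and 4 higher and 0 lower in exercised mice. In sedentary mice these were Ppbp, a platelet chemokine (25 and 60 reads), Gp9 (4 and 11), Gp6 (0 and 7) and Treml1 (2 and 14). The counting interval of Gp9 reached past 0. In exercised mice they were Ppbp, Itga2b, Gp6 and Treml1, with at most 81 reads. Exercise called 2 of the 7 lower in tumor-free mice (Ppbp and Gp9) and 1 lower in tumor-bearing mice (Gp9), and none higher. Among the platelet markers, Pf4, platelet factor 4, had 842, 1066, 1429 and 937 reads, while Gp6 had 0, 0, 7 and 8. Pf4 and Gp1bb, the most abundant of them, were called in no comparison, and Gp1bb was lower with the tumor in sedentary mice (-0.62). Among the white cell markers, the tumor called 2 higher and 0 lower in both settings, exercise called 0 in tumor-free mice and 1 lower in tumor-bearing mice, and Cd68, of macrophages, had 87, 117, 957 and 295 reads. C1qa, of macrophages too, was the other 1 higher in sedentary mice, and Itgam, named after its value was seen, in exercised mice. With the tumor in sedentary mice the white cell median was -0.08, with 3 of the 7 markers over the minimum higher and 4 lower, and the growth factor receptor Csf1r (-0.69) and the lysozyme gene Lyz2 (-0.27) were among the lower without being called. Their part in the level of Pecam1 was not tested.

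The wider endothelial list moved little as a whole. Over the 25 markers outside the 10 genes, exercise in tumor-free mice called none in either direction, with a median difference of 0.11. The tumor in sedentary mice called 2 higher (Cldn5 and Vwf) and 4 lower (Sox18, Sox7, Cd34 and Podxl), with a median of -0.08. Exercise in tumor-bearing mice called 2 higher (Esam and Sox18) and 0 lower, with a median of 0.32, and the tumor in exercised mice called 2 higher (S1pr1 and Vwf) and 2 lower (Sox7 and Tal1), with a median of -0.05. Apart from Cd34, these called genes were named after their values were seen. The 25 summed to 0.184%, 0.276%, 0.171% and 0.231% of reads, a sum led by Aqp1, a water channel of capillaries and red cells, with 8834, 19792, 8215 and 13105 reads. Egfl7, an endothelial matrix protein, had 732, 1415, 1290 and 1022 reads, Gpihbp1, which anchors lipoprotein lipase on capillaries, had 772, 1017, 1359 and 1281, and neither was called. Cd34, shared by endothelium and fibroblast-like cells, had 4008, 4903, 1397 and 2024, and fell by 1.51 (log2) in the sedentary tumor comparison.

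**Figure D4:**
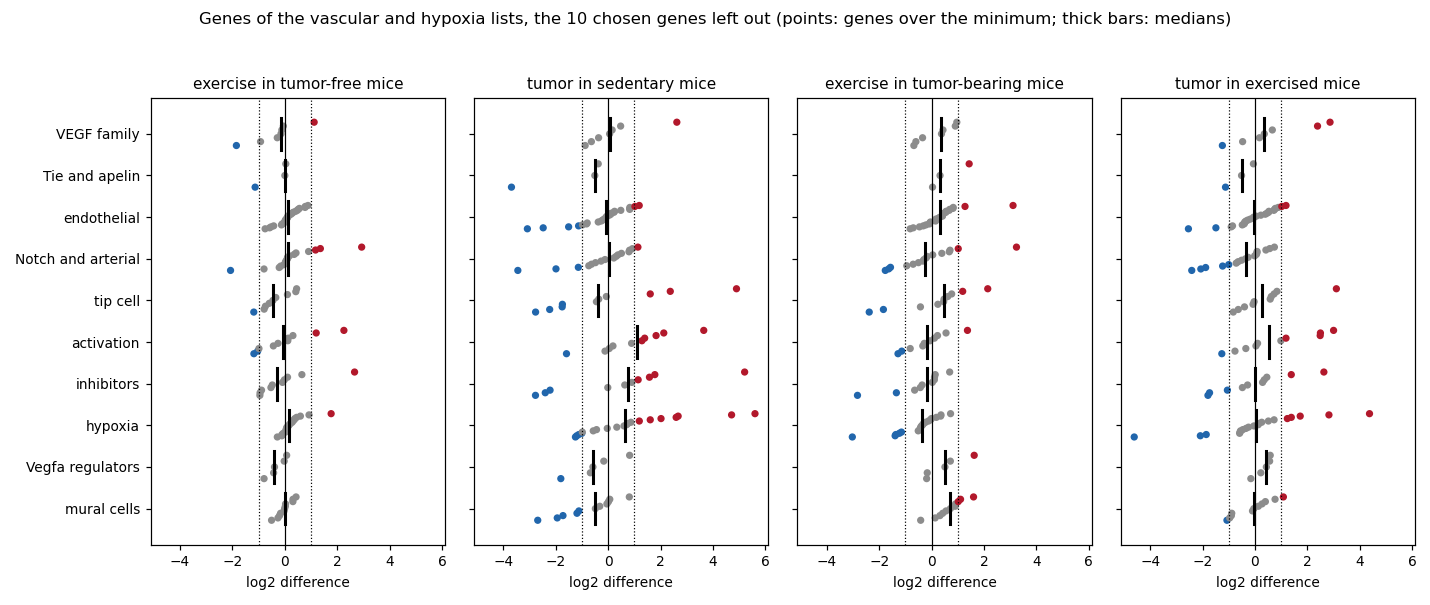
Difference on the log2 scale (horizontal axis) of every gene over the minimum in the vascular and hypoxia lists, the 10 chosen genes left out, in the 4 comparisons of 1 library against 1. Points are genes, thick bars are list medians and dotted lines mark 2-fold, and the endothelial list had medians of 0.11, -0.08, 0.32 and -0.05 in the 4 panels.

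Sox17 was the 1 gene of the 10 whose level in cancer control stood above all other libraries beyond counting error. It had 150 reads in the normal control library and 190 in normal exercise, against 260 in cancer control and 160 in cancer exercise, with normalized read counts of 159.6, 154, 278 and 173. The other 3 levels were not separated from their neighbours. With the tumor in sedentary mice the difference was 0.80 (0.51 to 1.10) and with exercise in tumor-bearing mice it was -0.68 (-0.98 to -0.39), both short of 2-fold. Its close relatives in the SoxF group, looked at after their values were seen, had a low point there instead. Sox7 had 44, 107, 7 and 13 reads and Sox18 had 16, 12, 1 and 16, so both were at their scarcest in cancer control.

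Arterial and Notch pathway genes, which work with Sox17 in arteries, were called in both directions. Of the 17 genes, exercise in tumor-free mice called 3 higher and 1 lower, the tumor in sedentary mice 1 higher and 3 lower, exercise in tumor-bearing mice 2 higher and 3 lower, and the tumor in exercised mice 0 higher and 5 lower. The first comparison named Hey2, Gja5 and Efnb2 higher and Bmx lower, the second Ephb4 higher and Dll4, Gja5 and Bmx lower, the third Gja5 and Bmx higher and Dll1, Efnb2 and Unc5b lower, and the fourth Dll1, Hey2, Heyl, Efnb2 and Unc5b lower. Apart from Ephb4 and Unc5b, these were named after their values were seen. Hey2 (at most 8 reads), Bmx and Gja5 (4 and 2 reads in cancer control) were too scarce for their folds to be read closely. Unc5b, a guidance receptor of arterial and sprouting endothelium, had 196, 276, 116 and 38 reads and fell with exercise in tumor-bearing mice and with the tumor in exercised mice. Ephb4, a receptor of venous endothelium, rose with the tumor in sedentary mice (89 and 195 reads, difference 1.13). Notch4, an endothelial Notch receptor, and Nr2f2, a venous transcription factor, were called in no comparison. Dll4, the Notch ligand that VEGF signalling induces, had 141, 209, 63 and 100 reads, ordering the libraries as Kdr did except for the 2 cancer libraries, and fell with the tumor in sedentary mice (difference -1.14).

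Genes linked to sprouting tip cells and their matrix gave 0 called higher and 1 lower of 10 with exercise in tumor-free mice, and 3 higher and 4 lower with the tumor in sedentary mice. Exercise in tumor-bearing mice called 2 higher and 2 lower, and the tumor in exercised mice 1 higher and 0 lower. Cxcr4 was the 1 lower in the first of these, Esm1, Adm and Plaur were higher and Pdgfb, Cxcr4, Lama4 and Nid1 lower in the second, Pdgfb and Cxcr4 higher and Esm1 and Plaur lower in the third, and Plaur higher in the fourth. Apart from Adm and Nid1, these names were chosen after the values were seen. Adm, the vasodilator adrenomedullin, had 219, 393, 663 and 488 reads and rose with the tumor in sedentary mice. Nid1, a basement membrane link protein, had 1131, 858, 238 and 361 reads and fell in that comparison (-2.23). Col4a1 and Col4a2, the collagen chains of capillary basement membrane, were called in no comparison. Esm1, a tip cell product induced by VEGF, had 37, 32, 194 and 36 reads and was highest in the library where Vegfa was lowest. Pdgfb, the endothelial signal that draws in pericytes, had 176, 309, 51 and 226 reads and was lowest there.

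Genes of activated endothelium and of the clotting balance at its surface leaned upward with the tumor. Of the 11 genes, 10 had reads (Sele had 0 in each library). The tumor in sedentary mice called 5 higher and 1 lower with a median of 1.09, and in exercised mice 4 higher and 1 lower with a median of 0.54. Ackr1, the chemokine-binding receptor of venules, had 120, 79, 314 and 335 reads and was 1 of those higher in both. Those higher in sedentary mice also included Icam1 and Selp, which encode leukocyte adhesion molecules, and Edn1, which encodes endothelin 1 (named after their values were seen). Thbd, the anticoagulant thrombomodulin, had 488, 534, 160 and 410 reads, falling with the tumor in sedentary mice (-1.59) and rising with exercise in tumor-bearing mice (1.37), the directions that Angpt1 took. Nos3, endothelial nitric oxide synthase, and Procr, the protein C receptor, were not called. Icam1 and Selp were again higher in exercised mice, where Vcam1 was lower. Exercise called Selp and Edn1 higher and Icam1 and Tfpi lower (2 and 2) in tumor-free mice, and Thbd higher and Vcam1 and Icam1 lower (1 and 2) in tumor-bearing mice. Tfpi and Sele were also named after their values were seen.

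Secreted or matrix-bound inhibitors of vessel growth also split. The tumor in sedentary mice called 4 of the 10 higher and 3 lower, the tumor in exercised mice 2 higher and 3 lower, exercise in tumor-free mice 1 higher and 0 lower, and exercise in tumor-bearing mice 0 higher and 2 lower. Thbs2, thrombospondin 2, had 218, 154, 479 and 302 reads and rose with the tumor in both settings. Serpinf1, encoding PEDF, had 799, 541, 115 and 116 and fell in both. The others called higher were Sema3a (sedentary), Sema3f (both) and Cxcl10 (sedentary, and with exercise in tumor-free mice), and the others called lower were Col18a1 and Vash1 (both), all named after their values were seen. Sema3a and Cxcl10 were the 2 lower with exercise in tumor-bearing mice. Timp3, which blocks VEGF from Kdr, and Adamts1, a protease that releases anti-angiogenic fragments, were called in no comparison.

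Lymphatic endothelium was represented by 6 markers, all with reads in at least 3 libraries. Prox1, its defining transcription factor, had only 14, 13, 5 and 0 reads. Lyve1, a hyaluronan receptor shared with macrophages, had 865, 1347, 1048 and 1801 reads and was called in no comparison, and Ccl21a, a chemokine, had 212, 310, 41 and 64. Pdpn, Reln and Mmrn1 were called in no comparison. The tumor called 2 of the 6 lower in sedentary and 2 lower in exercised mice (Prox1 and Ccl21a in both), exercise in tumor-bearing mice called 1 lower (Prox1), and exercise in tumor-free mice called 0.

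Other tissues also varied between the libraries. The 9 red cell genes took 2.74%, 0.609%, 2.77% and 5.82% of reads. All 8 over the minimum were called lower with exercise in tumor-free mice, all 9 were called higher with exercise in tumor-bearing mice and with the tumor in exercised mice, and 0 were called with the tumor in sedentary mice. Some of the globin rows among them were almost equal in every library. Hbb-bs had 59726, 14122, 61753 and 141937 reads and Hbb-b1 had 58862, 13947, 61157 and 140469. Such rows may count the same reads more than once, so the 9 are not separate measures and the summed shares may be too high. Skin transcripts stood out in cancer control alone, where the 8 epidermal markers summed to 0.00749% of reads, against 0.00204% in each tumor-free library and 0.000798% in cancer exercise. Flg2 had 148 reads there and 0 in every other library, and Krt5 had 20 there and 0 elsewhere. Krt10, which made up most of the reads of the list in the other libraries, had 181, 236, 204 and 76 reads. In cancer control 6 of the 8 were called higher than in normal control, all but Krt10 and Krtdap. With exercise in tumor-bearing mice 8 of 8 were called lower. Between the tumor-free libraries 1 was higher and 1 lower, and between the exercised libraries 1 higher and 3 lower. Sox17 and Esm1 were also highest in that library, and the part of skin in their levels was not tested.

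Of the 10 muscle fibre markers, 0 were called higher and 1 lower with exercise in tumor-free mice, 1 and 4 with the tumor in sedentary mice, 1 and 0 with exercise in tumor-bearing mice, and 2 and 1 with the tumor in exercised mice. The 4 most abundant were Acta1, Myh4, Tnnt3 and Tnni2, of which only Acta1 was called, falling with the tumor in sedentary mice (326581 and 125928 reads). The 5 satellite cell markers were scarce, summing to 0.000834% to 0.00161% of reads. Pax7, their defining factor, had 23, 27, 2 and 0 reads. Exercise called 0 of the 5 higher and 2 lower in tumor-free mice and 1 and 2 in tumor-bearing mice, and the tumor called 0 and 2 in sedentary and 1 and 3 in exercised mice.

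**Figure D5:**
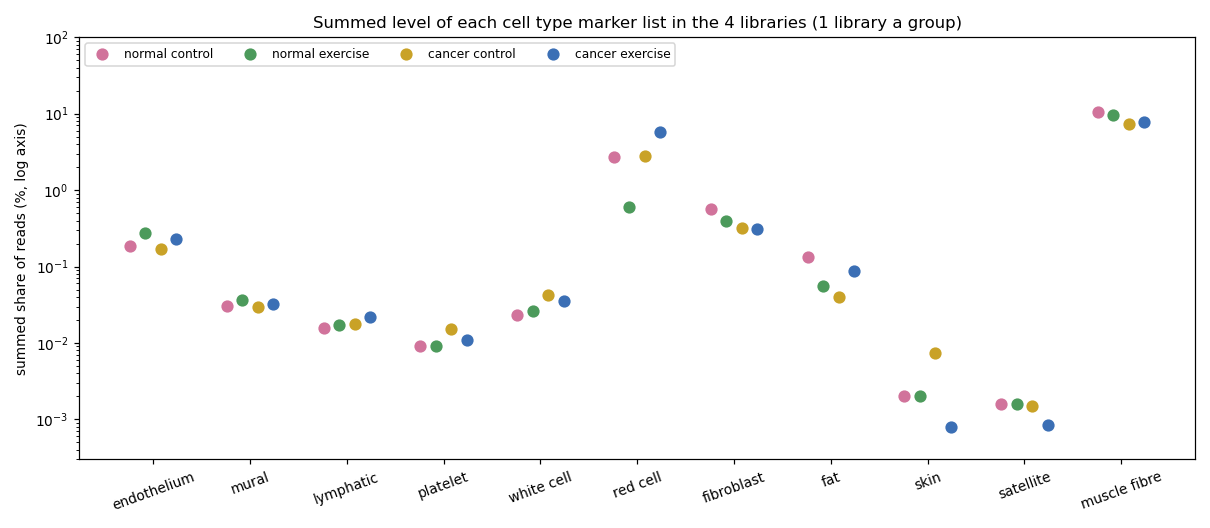
Share of all reads (percent, log axis) taken by each cell type marker list in the 4 libraries, 1 library a group, with the 10 chosen genes left out of the endothelial list. Red cell genes ranged from 0.609% to 5.82% and skin genes from 0.000798% to 0.00749%, whereas the endothelial share stayed between 0.171% and 0.276%.

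The genes whose levels over the 4 libraries most resembled those of each of the 10 were found by the root mean square difference of log2 values, after subtracting each gene's mean, among the 12045 genes whose mean normalized read count reached 16. The number of genes within 0.1 was 157 for Pecam1, 117 for Sox17, 110 for Flt1, 83 for Cdh5, 64 for Tek, 28 for Vegfa, 12 for Kdr, 5 for Angpt1, 4 for Angpt2 and 0 for Apln. The closest to Vegfa were Traf5 (0.009) and Wdr77 (0.03), and to Kdr Slc8b1 (0.04) and Gtf3c5 (0.06). The closest to Flt1 were Tfip11 and Dctn6, to Pecam1 Fam207a and Shmt2, to Cdh5 Mbd5 and Fryl, to Tek Pea15a and Sapcd1, and to Sox17 Taf9 and Uvrag. Angpt1 was closest to Kctd15 (0.03) and Fam114a1 (0.05), which had 38 and 33 reads in cancer control and 299 and 230 in normal control. Angpt2 was closest to Cln3 and Atg16l2 (0.08 each). The closest to Apln were S100b (0.17), a Schwann cell and fat cell protein, and Postn (0.19), a matrix protein. S100b had 606, 242, 178 and 85 reads and Postn 151, 62, 25 and 16. The other 9 of the 10 genes were left out of this search.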

How the data were processed

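RNA of the right gastrocnemius was sequenced with the QuantSeq 3′ kit, single end, in 4 libraries (1 per group). The authors aligned the reads with Bowtie2 to mm10, counted them per gene with bedtools and applied edgeR's quantile normalization (no versions are given), and the deposited values are log2 values of the normalized count plus 1. The handling of strand, duplicates and reads with several matches is not given in the sources used here. Whole reads were rebuilt by inverting the quantile adjustment of the authors' edgeR step, whose formulas were written out in R 4.3.3, at a fitted common dispersion of 0.3394. No count model was tested. With these, 100% of values were matched within 6e-04 on the log2 scale, and 94.9% to 96.2% of values gave a single read count. The steps were tested on simulated data. Per library 10647862 to 13225886 reads were found, and Poisson and Clopper-Pearson 95% intervals cover counting error only.

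The 4 comparisons of 1 library against 1 were computed across all genes, with no test. The 10 genes and the 19 gene lists were chosen with earlier results of these data known. The rule for naming took all genes of lists of up to 8, otherwise the 4 with the highest mean normalized read count. It also took, for each of the 10 genes, the 2 most like it. From the fibroblast, fat, skin, satellite cell and red cell lists only some of these were printed, picked after their values were seen. Any other gene was named after its values were seen, as the text says. Lists and medians leave out the 10 genes. Alternatives were 3 other scalings (by total count, by TMM and by median of ratios), a pseudocount of 4, a minimum of 0 or 16, a 1.5-fold limit and counting intervals wholly past 2-fold. Positions come from the GENCODE annotation of GRCm38, and promoters from RefSeq. Protein sequences were not used here. A gene counted in the list of activated endothelium is not reported here by name.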

Additional observations from a re-analysis of the deposited data

Results flagged for a closer look

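Some genes differed in opposite directions under the same contrast, with 1 library behind each group, so the difference between the contrasts was not tested. The effect of exercise on Vegfa was -0.32 in tumor-free and 1.11 in tumor-bearing mice on the log2 scale, which differ by 1.43. The tumor effect on Vegfa was -0.72 in sedentary and 0.71 in exercised mice. These differ by the same 1.43 by arithmetic, as the same 4 values are used, so it is not a second observation. For Flt1, exercise gave 0.59 in tumor-free and -0.21 in tumor-bearing mice, a difference of -0.80. The tumor gave 0.66 in sedentary and -0.13 in exercised mice, which by the same arithmetic are -0.80 apart. No effect on Flt1 reached 2-fold. For Aplnr, exercise gave -1.13 in tumor-free and 1.43 in tumor-bearing mice, 2.57 apart, and the second value rests on 2 reads in cancer control and 7 in cancer exercise.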

How the results depend on the processing

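No paired analysis was possible because each group has 1 library, and for the same reason no library could be left out. Of 72 recomputed counts of called genes among the 10, 62 stayed within 1.5 times and 10 moved. Of 160 recomputed differences of single genes, 154 stayed within their counting interval, 6 moved and 0 called ones changed sign. At 1.5-fold, the counts became 3 higher with exercise in tumor-free mice, 2 higher and 5 lower with the tumor in sedentary mice, 2 lower with exercise in tumor-bearing mice, and 1 higher and 4 lower with the tumor in exercised mice, as a lower limit admits more genes. Where the whole counting interval had to pass 2-fold, 0 remained higher with exercise in tumor-free mice, 1 higher with exercise in tumor-bearing mice (Angpt1) and 1 lower with the tumor in exercised mice (Kdr). A pseudocount of 4 left 1 lower with the tumor in exercised mice, since Apln has few reads there. Total count scaling moved the median of all genes by 0.16 for exercise in tumor-free mice and by -0.16 for the tumor in exercised mice, and added Angpt1 to the genes called lower in the latter. The 6 moved differences all belonged to it (Vegfa, Flt1 and Pecam1 in these 2 comparisons), and Vegfa then differed by -0.16 with exercise in tumor-free mice. Genes under about 20 reads, such as Apln in cancer exercise and Aplnr in cancer control, are limited by depth.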
